A study of Mus musculus with 9 samples.

Results

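The 8 genes described here are transcripts of neutrophils and of the chemokines that draw them, S100a8, S100a9, Cxcl1, Cxcl2, Cxcr2, Csf3r, Retnlg and Lcn2, taken by symbol from the 24421 symbols in each count table. All 8 were found. They were chosen by their measured levels in these same ABTAA, VEGF Trap and Fc libraries, so their values below are a description, and nothing is supported with them.

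Neutrophils are short-lived white blood cells that leave the blood for injured tissue, and they are among the first cells to reach a laser burn of the choroid. They follow chemokines that bind the receptor CXCR2, of which Cxcl1 and Cxcl2 are mouse ligands made by stressed epithelium, endothelium and macrophages. Granulocyte colony-stimulating factor, acting on the receptor encoded by Csf3r, drives their production and survival. Their cytosol is rich in S100a8 and S100a9, calcium-binding proteins that pair as calprotectin, and they also make the iron-scavenging lipocalin Lcn2 and the resistin-like protein Retnlg.

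Expression was measured in mice with laser-induced choroidal neovascularization (CNV), in which a burn through the Bruch membrane makes choroidal vessels grow. Male mice, 8 weeks old, had 4 burns per eye, and the reagents were injected into the vitreous at 5 µg. The 3 groups of 3 libraries were ABTAA (an angiopoietin 2 antibody that also switches on Tie2, a receptor of endothelium), VEGF Trap (a decoy that captures VEGF) and Fc (the constant fragment of an antibody, taken as the control). The lesion with a margin of retinal pigment epithelium (RPE) and choroid was cut out by laser capture, and the 3 prime ends of its RNA were sequenced. All 9 libraries came from burned and injected eyes, so unburned or uninjected tissue was not analysed here. The sources used here do not give the strain, the time from burn to collection or the number of animals or lesions behind a library. Since libraries are not traced to animals, p-values reflect only how these samples scatter, and that scatter may be technical.

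Total counts were 6335805 to 10060014 in the ABTAA libraries, 7346988 to 14439835 in the VEGF Trap libraries and 10669772 to 12326569 in the Fc libraries. Levels are given in CPM, the count relative to the size of its library after TMM scaling. A gene with 3 counts, the floor below which it may go unseen, had 0.209 to 0.469 CPM. The floor and the counts themselves cover counting error only. The labelled tissue had its markers: all 10 RPE genes and all 10 endothelial genes on the lists were measured. Library Fc 1 stood apart for most of the 8 genes, least for Csf3r (19.3 CPM there and 17.1 CPM in VEGF Trap 3). Each of the 8 had its highest level in Fc 1, and the main comparisons with Fc are given with and without that library. In bulk tissue, fewer cells of a type and less RNA per cell cannot be told apart.

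The stretches upstream of Cxcl1 and Cxcl2 are shown because these are neighbouring chemokine genes, both highest in Fc 1, as were all 8 genes. That of S100a9 is shown because it was the only gene of the 8 past the threshold in a comparison. Cxcl1 lies on chromosome 5 at 90891241 to 90893115 and Cxcl2 at 90903871 to 90905938, both on the plus strand of mm10 (GRCm38) and 10.76 kb apart. S100a8 (chromosome 3, 90668978 to 90670035, plus strand) and S100a9 (90692632 to 90695721, minus strand) are 22.6 kb apart. The sequences are the 250 bases before each RefSeq start (GRCm38.p6), written 5′ to 3′ on the gene's strand, at chr5:90890995-90891244 (plus) for Cxcl1, chr5:90903649-90903898 (plus) for Cxcl2 and chr3:90695722-90695971 (minus) for S100a9.
Cxcl1: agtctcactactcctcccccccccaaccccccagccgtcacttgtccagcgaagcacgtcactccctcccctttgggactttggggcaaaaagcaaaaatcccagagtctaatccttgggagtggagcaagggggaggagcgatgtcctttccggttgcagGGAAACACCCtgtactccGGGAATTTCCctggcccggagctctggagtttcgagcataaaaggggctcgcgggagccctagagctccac
Cxcl2: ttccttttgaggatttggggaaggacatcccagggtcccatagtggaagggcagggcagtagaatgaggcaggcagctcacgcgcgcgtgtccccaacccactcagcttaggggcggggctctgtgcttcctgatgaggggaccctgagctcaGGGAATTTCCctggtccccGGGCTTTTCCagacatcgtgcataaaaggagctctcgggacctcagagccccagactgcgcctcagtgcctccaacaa
S100a9: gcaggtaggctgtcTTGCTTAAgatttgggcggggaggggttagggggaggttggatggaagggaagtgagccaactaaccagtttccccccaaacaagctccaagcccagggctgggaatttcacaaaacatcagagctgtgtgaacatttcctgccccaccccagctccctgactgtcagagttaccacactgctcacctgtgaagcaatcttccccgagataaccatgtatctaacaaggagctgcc
Capitals mark matches on either strand to GGG, any 2 bases and TTTCC, a form of the kappa-B motif, or to TTGCNNAA, a form of the C/EBP motif, letters that were picked with these stretches in view. Cxcl1 held kappa-B matches 89 to 80 bases before the start, on the minus strand, and 71 to 62 bases before it, on the plus strand. Cxcl2 held them at 97 to 88 and 78 to 69 bases, both on the plus strand, and the first shares its letters GGGAATTTCC with the second of Cxcl1. S100a9 held a C/EBP match, TTGCTTAA, 236 to 229 bases before the start. Of 32851 such windows in the genome, 464 (1.41%) held the kappa-B letters and 3142 (9.56%) the C/EBP letters. Among the 8 genes these were 2 windows (Cxcl1 and Cxcl2) and 3 windows (S100a9, Retnlg and Lcn2). Whether any factor binds these letters in this tissue was not measured.

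S100a8 had 28.5, 35.1 and 26.6 CPM in the ABTAA libraries, 34.2, 26.8 and 55.9 CPM in the VEGF Trap libraries and 296, 43.5 and 67.1 CPM in the Fc libraries. Every ABTAA library lay below every Fc library, and VEGF Trap 3 lay above Fc 2. The means were 30.1 ± 4.47, 39.0 ± 15.1 and 135 ± 139 CPM for ABTAA, VEGF Trap and Fc (SD, n = 3 each), the last with an SD above its mean. S100a9, its partner in calprotectin, had 24.8, 13.3 and 14.7 CPM in ABTAA, 30.2, 16.3 and 36.3 CPM in VEGF Trap and 197, 35.0 and 54.7 CPM in Fc libraries. Again ABTAA and Fc did not overlap, while VEGF Trap 3 passed Fc 2. The S100a9 means were 17.6 ± 6.27 CPM in ABTAA, 27.6 ± 10.3 CPM in VEGF Trap and 95.6 ± 88.5 CPM in Fc. With Fc 1 set aside, the mean of Fc 2 and Fc 3 was 55.3 CPM for S100a8 and 44.8 CPM for S100a9. Counts of S100a8 per count of S100a9 ran from 1.15 to 2.64 in ABTAA, from 1.13 to 1.64 in VEGF Trap and from 1.23 to 1.50 in Fc, so the pair kept a proportion in Fc 1 that other libraries also had. The counts of S100a9 were even in every library and those of S100a8 were not, so the size of this ratio is uncertain.

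The chemokines were scarcer and more uneven. Cxcl1 was counted 14, 9 and 9 times in the ABTAA libraries, 5, 26 and 6 times in the VEGF Trap libraries and 157, 27 and 23 times in the Fc libraries. As levels these were 1.45, 0.893 and 1.41 CPM in ABTAA, 0.415, 1.81 and 0.832 CPM in VEGF Trap and 14.7, 2.29 and 1.76 CPM in Fc. The ABTAA libraries lay below all Fc libraries, VEGF Trap 2 lay just above Fc 3, and Fc 1 held 56.9% of all Cxcl1 counts. Cxcl2 was counted 10, 16 and 1 times in ABTAA, 7, 6 and 6 times in VEGF Trap and 259, 6 and 21 times in Fc libraries. Its levels were 1.03, 1.59 and 0.156 CPM in ABTAA, 0.580, 0.418 and 0.832 CPM in VEGF Trap and 24.2, 0.509 and 1.60 CPM in Fc. Fc 1 held 78.0% of the Cxcl2 counts and was 22.9 times the mean of Fc 2 and Fc 3, while Fc 2 lay within the range of the treated libraries. Without Fc 1, the Fc mean was 2.02 CPM for Cxcl1 and 1.06 CPM for Cxcl2.

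The receptors differed from each other. Cxcr2, the receptor for both chemokines, was counted 7, 8 and 3 times in the ABTAA libraries, 8, 5 and 2 times in the VEGF Trap libraries and 83, 9 and 57 times in the Fc libraries. Here Fc 3 was high as well as Fc 1: the levels were 0.723, 0.793 and 0.469 CPM in ABTAA, 0.663, 0.348 and 0.277 CPM in VEGF Trap and 7.75, 0.764 and 4.35 CPM in Fc. Fc 2 lay inside the ABTAA range, so those groups overlapped, whereas all VEGF Trap libraries lay below all Fc libraries. Csf3r, the receptor for granulocyte colony-stimulating factor, had 10.5, 11.8 and 4.69 CPM in ABTAA, 14.9, 8.99 and 17.1 CPM in VEGF Trap and 19.3, 9.67 and 17.0 CPM in Fc libraries. All 3 groups overlapped, and Fc 1 was only 1.45 times the mean of Fc 2 and Fc 3. The Csf3r values are uncertain, because the ends of its annotated transcripts share at least 100 bases at 95% identity or more with the ends of other genes. No such copy was found for the other 7 genes.

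Of the secreted products, Lcn2 had 1.34, 1.88 and 3.75 CPM in ABTAA, 1.41, 2.51 and 2.22 CPM in VEGF Trap and 12.8, 2.97 and 4.12 CPM in Fc libraries. VEGF Trap did not overlap Fc, and ABTAA 3 lay above Fc 2. Lcn2 is also made by epithelium and glia. Retnlg was counted 1, 0 and 4 times in the ABTAA libraries, 0, 13 and 5 times in the VEGF Trap libraries and 50, 6 and 12 times in the Fc libraries. It was high in Fc 1 alone, at 4.67 CPM, with at most 0.626 CPM in ABTAA, 0.906 CPM in VEGF Trap and 0.916 CPM in the rest of Fc. The 0 counts in ABTAA 2 and VEGF Trap 1 allow up to 0.298 and 0.249 CPM.

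**Figure D1:**
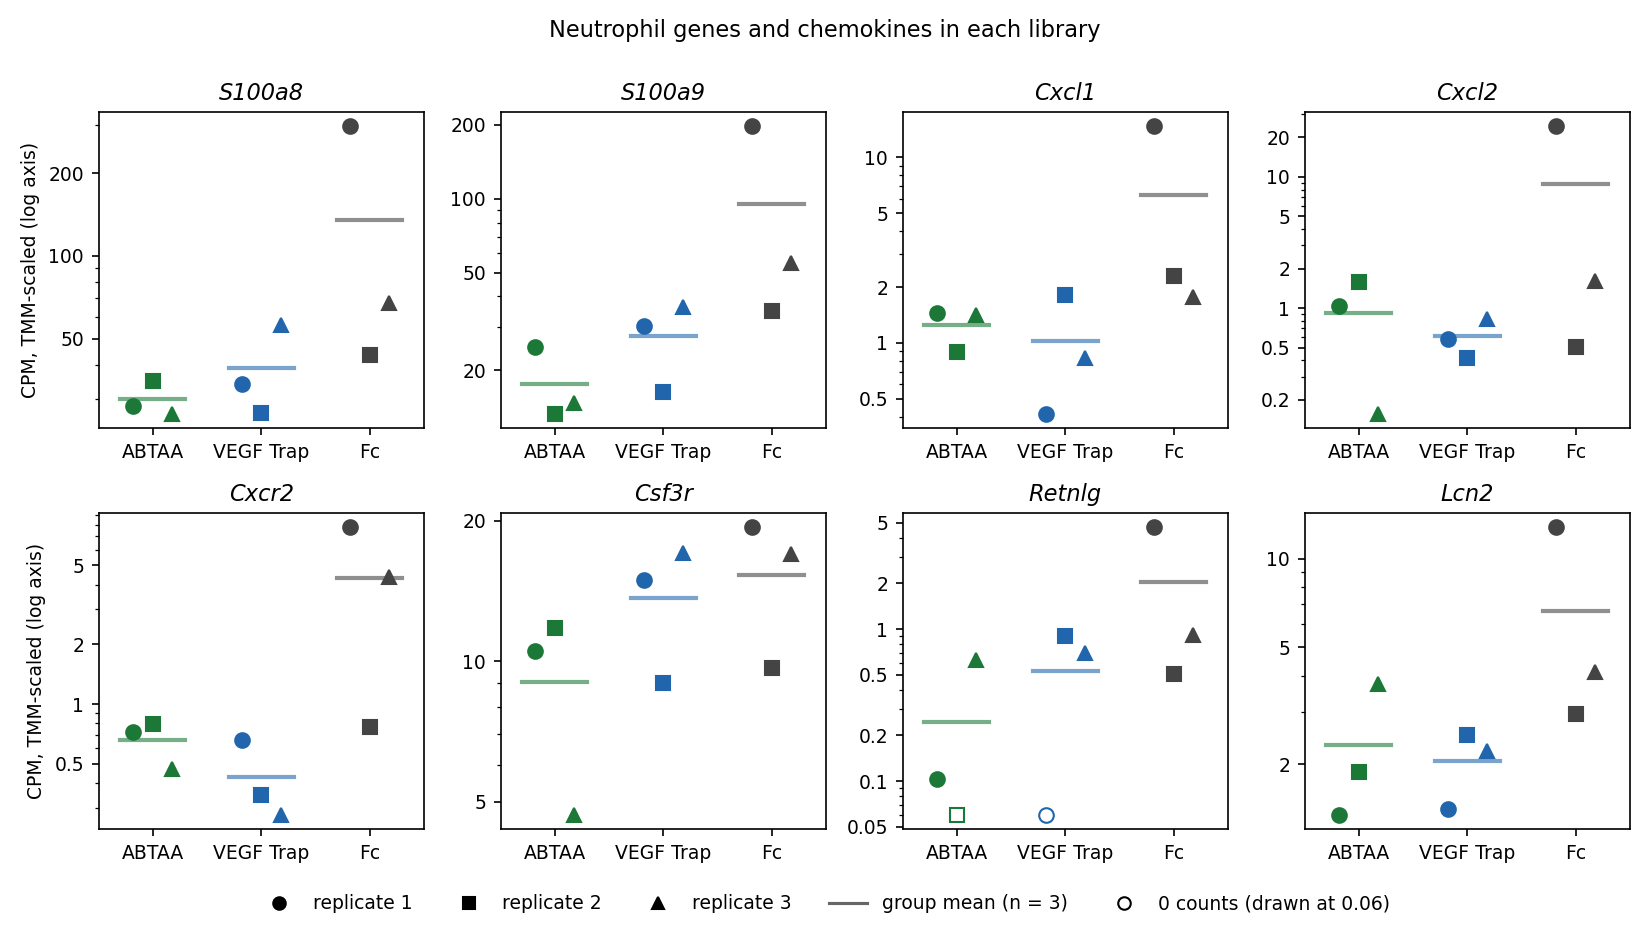
Level of each of the 8 genes in every library, in CPM scaled by TMM on log axes that differ between panels; points are libraries (shape gives the replicate number), bars are group means (n = 3) and open points are counts of 0. Fc 1 is the highest point in all 8 panels, and Fc 2 lies below at least 1 treated library for every gene but Cxcl1.

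Differences were fitted with edgeR over 14054 genes, of which 6 of the 8 were part. Cxcr2 and Retnlg were below the filter on low counts. That filter can keep a gene through the one group where it is high, so the 6 are not read as a sample of the 8. In ABTAA minus Fc, S100a9 passed the threshold of 0.05 (log2 fold change −2.43 ± 0.50 SE, edgeR adjusted p = 0.035). S100a8 lay at that threshold (−2.16 ± 0.51, edgeR adjusted p = 0.05004). The count of 1 of 6 stands beside 0.555% of all tested genes called lower, 0.847% called higher and 1.4% called in either direction. For Cxcl1 the value was −2.31 ± 0.74, for Cxcl2 −3.12 ± 1.02, for Lcn2 −1.55 ± 0.53 and for Csf3r −0.74 ± 0.33 (edgeR adjusted p from 0.121 to 0.267). S100a8, S100a9 and Cxcl1 had no overlap between ABTAA and Fc, as had 11.3% of all tested genes in the lower direction and 11.7% in the higher. These counts are read no further, since the genes were chosen with this comparison known.

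S100a9 lost its call when any of 4 libraries was set aside: edgeR adjusted p was 0.0637 without ABTAA 1, 0.171 without ABTAA 2, 0.0799 without ABTAA 3 and 0.0694 without Fc 1. In the first 3 of these its log2 fold change was −2.77, −2.25 and −2.33. Without Fc 1 it was −1.34 ± 0.31. S100a8 passed without Fc 2 or without VEGF Trap 1 (edgeR adjusted p = 0.0476 in both) and was −0.88 ± 0.26 without Fc 1. The chemokine values were then −0.70 ± 0.67 for Cxcl1 and −0.14 ± 0.86 for Cxcl2, each with an SE close to or above its size, and Lcn2 was −0.65 ± 0.51. Over all genes, 47 were called without Fc 1, against 197 with it.

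In VEGF Trap minus Fc, which shares its Fc libraries with the ABTAA comparison, none of the 6 passed in edgeR, where 144 of all tested genes (1.02%) were called, 0.512% in each direction. At an unadjusted p under 0.05 there were 5 of the 6, all lower, beside 1053 lower and 1109 higher of the 14054 tested genes. DESeq2 called none of the 3 genes to which it gave an adjusted p (S100a8, S100a9 and Csf3r) and gave none to Cxcl1, Cxcl2 and Lcn2. The log2 fold changes were −1.81 ± 0.50 for S100a8, −1.81 ± 0.48 for S100a9, −2.54 ± 0.73 for Cxcl1, −3.88 ± 1.08 for Cxcl2 and −1.68 ± 0.53 for Lcn2 (edgeR adjusted p from 0.0733 to 0.124). Csf3r was at −0.18 ± 0.32. Without Fc 1 the values were −0.52 ± 0.26 for S100a8, −0.72 ± 0.30 for S100a9, −0.95 ± 0.66 for Cxcl1, −0.84 ± 0.87 for Cxcl2, −0.79 ± 0.50 for Lcn2 and 0.02 ± 0.35 for Csf3r. Lcn2 had no overlap between VEGF Trap and Fc, as had 10.5% of tested genes in the lower direction and 10.4% in the higher. Cxcr2 also had none but was not among the genes tested.

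**Figure D2:**
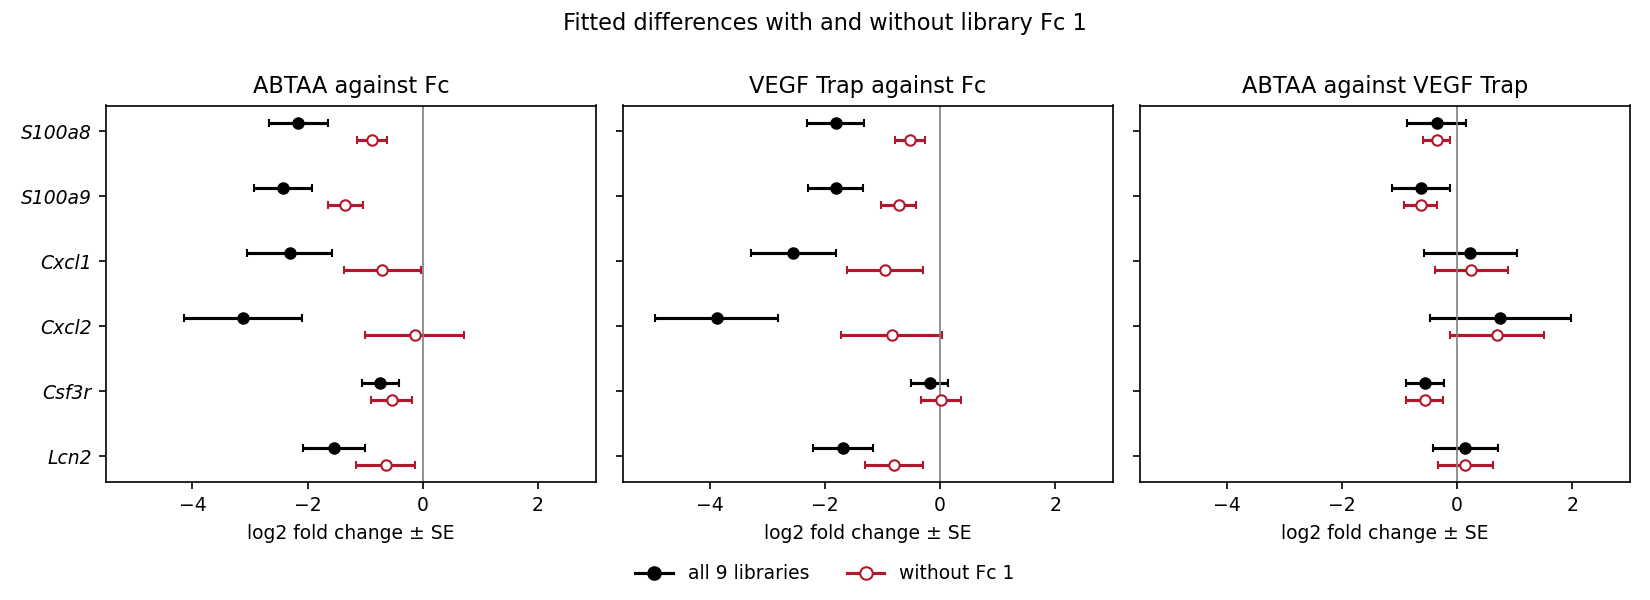
Fitted log2 fold change and standard error of the 6 tested genes in ABTAA minus Fc and in VEGF Trap minus Fc, with all 9 libraries and without Fc 1; the line at 0 is no difference. Without Fc 1 the S100a9 value in ABTAA minus Fc was −1.34 against −2.43 with it, and that of Cxcl2 was −0.14 against −3.12.

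Between the treatments the 6 genes did not separate at this precision. In ABTAA minus VEGF Trap, the log2 fold change was −0.62 for S100a9 (95% interval −1.69 to 0.44), −0.35 for S100a8 (−1.44 to 0.74) and −0.56 for Csf3r (−1.26 to 0.14). It was 0.23 for Cxcl1 (−1.49 to 1.95), 0.76 for Cxcl2 (−1.86 to 3.38) and 0.14 for Lcn2 (−1.06 to 1.34). For each of the 6 the libraries of the groups overlapped, where 4.74% of tested genes had no overlap with ABTAA lower and 5.14% with ABTAA higher. No gene of the 14054 passed in edgeR (0%), although 711 had an unadjusted p under 0.05, and DESeq2 called 1. The intervals of the chemokines leave room for differences of several fold in either direction, so these values do not show that the reagents acted alike.

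Summed over the 8 genes, the level was 68.5, 65.4 and 52.4 CPM in ABTAA libraries, 82.4, 58.0 and 114 CPM in VEGF Trap libraries and 576, 95.1 and 152 CPM in Fc libraries, a sum that S100a8 and S100a9 make up for the most part. Outside Fc 1, the highest sum was that of Fc 3, followed by VEGF Trap 3. Over all tested genes, Fc 1 was highest for 12.2%, close to the even share among 9 libraries. It was at least 2 times every other library in 35 genes (0.249%), where the other libraries had 1 to 25 such genes. Of these 35, 5 were among the 8 described here (S100a8, S100a9, Cxcl1, Cxcl2 and Lcn2), 8 were other neutrophil genes, 3 belonged to the chemoattractant list and 19 were on no list. What set Fc 1 apart was not tested.

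Other neutrophil genes were mostly highest in Fc 1 too. A list of 34 symbols had 33 in the tables, of which 19 were tested. None was called in either comparison with Fc in edgeR. At an unadjusted p under 0.05, 10 of the 19 were lower and 0 higher in ABTAA minus Fc, beside 1156 lower and 1214 higher of all 14054 tested genes. In VEGF Trap minus Fc, 9 were lower and 0 higher, beside 1053 and 1109 of all. DESeq2 called 1 in each, of the 8 to which it gave an adjusted p. Their median log2 fold change was −0.93 in both comparisons, beside 0.00 over all tested genes. Without Fc 1 the medians were −0.32 for ABTAA and −0.25 for VEGF Trap, with 1 gene each at an unadjusted p under 0.05. Of the 31 list genes with any count, 21 (67.7%) were highest in Fc 1, and this list was drawn up with that library's behaviour known.

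Among these genes were granule, receptor and surface proteins, some chosen for mention after their values were seen. Il1r2, the decoy receptor for interleukin 1, had 3.41, 3.87 and 5.63 CPM in ABTAA, 2.82, 4.74 and 5.13 CPM in VEGF Trap and 28.4, 5.69 and 13.2 CPM in Fc libraries. All Fc libraries lay above all treated ones, and the log2 fold changes were −1.89 ± 0.45 for ABTAA and −1.91 ± 0.44 for VEGF Trap (edgeR adjusted p = 0.0508 and 0.0509). Fpr1, a receptor for formylated bacterial peptides that neutrophils carry, was counted 2, 3 and 1 times in ABTAA, 5, 3 and 3 times in VEGF Trap and 62, 0 and 0 times in Fc libraries. The granule gene Ngp had 0, 0 and 1 counts in ABTAA, 0 in each VEGF Trap library and 36, 3 and 0 in Fc. In both genes the counts beyond single digits were in Fc 1 alone.

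The 4 most abundant genes of the list differed less. Mmp9, the gelatinase B that neutrophils store and macrophages also make, had 111 to 153 CPM in ABTAA, 65.6 to 165 CPM in VEGF Trap and 131 to 155 CPM in Fc libraries (−0.10 ± 0.23 for ABTAA). Adam8 was at −0.00 ± 0.14 and Gsr, glutathione reductase, at −0.00 ± 0.17 in the same comparison. Mmp8, the neutrophil collagenase, was at −0.48 ± 0.19 for ABTAA and −0.47 ± 0.18 for VEGF Trap (edgeR adjusted p = 0.199 and 0.225). Of the genes for primary granule proteins, Elane and Ctsg had 0 counts in every library and Mpo had 1 count in each of ABTAA 1 and Fc 1, while Prtn3 was among the tested. The 14 list genes that were not tested summed to 20, 25 and 13 counts in ABTAA, 34, 28 and 12 counts in VEGF Trap and 296, 27 and 47 counts in Fc libraries.

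The wider pathway gave a smaller shift. Of 32 genes for chemoattractants, granulocyte colony-stimulating factor and their response, 23 were tested and none was called in edgeR. At an unadjusted p under 0.05, 7 of the 23 were lower in ABTAA minus Fc, beside 1156 of all 14054, and 3 of the 23 in VEGF Trap minus Fc, beside 1053 of all, with 0 higher in either. Of the 14 to which DESeq2 gave an adjusted p, it called 2 for ABTAA and 0 for VEGF Trap. The medians were −0.33 and −0.28, or −0.18 and −0.08 without Fc 1. Cxcl5, a further CXCR2 ligand, came closest to Cxcl1 in pattern: it had 7.95, 6.55 and 5.32 CPM in ABTAA, 7.63, 7.11 and 8.18 CPM in VEGF Trap and 64.7, 10.6 and 9.32 CPM in Fc libraries. The Fc libraries lay above all others, Fc 1 by far the most, with −2.07 ± 0.56 for ABTAA and −1.88 ± 0.54 for VEGF Trap (edgeR adjusted p = 0.0713 and 0.0973). Il1b, an inflammatory cytokine upstream of these chemokines, was at −1.65 ± 0.51 and −1.73 ± 0.51. Itgam, the CD11b chain of neutrophils and macrophages, was at −0.73 ± 0.18 for ABTAA and −0.29 ± 0.18 for VEGF Trap.

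The 4 most abundant genes of that list were near level, and other signal and adhesion genes on it were spread wider. For ABTAA minus Fc, Nfkbia, an inhibitor that NF-kappa-B itself induces, was at −0.00 ± 0.18, Cebpb at −0.09 ± 0.20, and the leukotriene genes Alox5ap and Lta4h at −0.05 ± 0.16 and 0.03 ± 0.16. The signal regulators Zc3h12a, Socs3 and Nfkbiz were at −1.09 ± 0.38, −0.70 ± 0.28 and −0.65 ± 0.19 in that comparison, each with every ABTAA library below every Fc library and none past the threshold (edgeR adjusted p from 0.0975 to 0.21). Of the 23 tested genes on the list, 7 had no overlap in the lower direction and 0 in the higher, beside 11.3% and 11.7% of all tested genes. Values of single list genes without Fc 1 are not given. Of the genes on the list that endothelium expresses, Sele was at −0.83 ± 0.58, Ackr1 at −0.72 ± 0.77, Selp at 0.04 ± 0.59 and Icam1 at 0.29 ± 0.25. The cytokine gene Csf3, whose product binds the receptor of Csf3r, was counted 0, 0 and 0 times in ABTAA, 0, 0 and 3 times in VEGF Trap and 4, 0 and 1 times in Fc libraries, too few for a comparison.

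**Figure D3:**
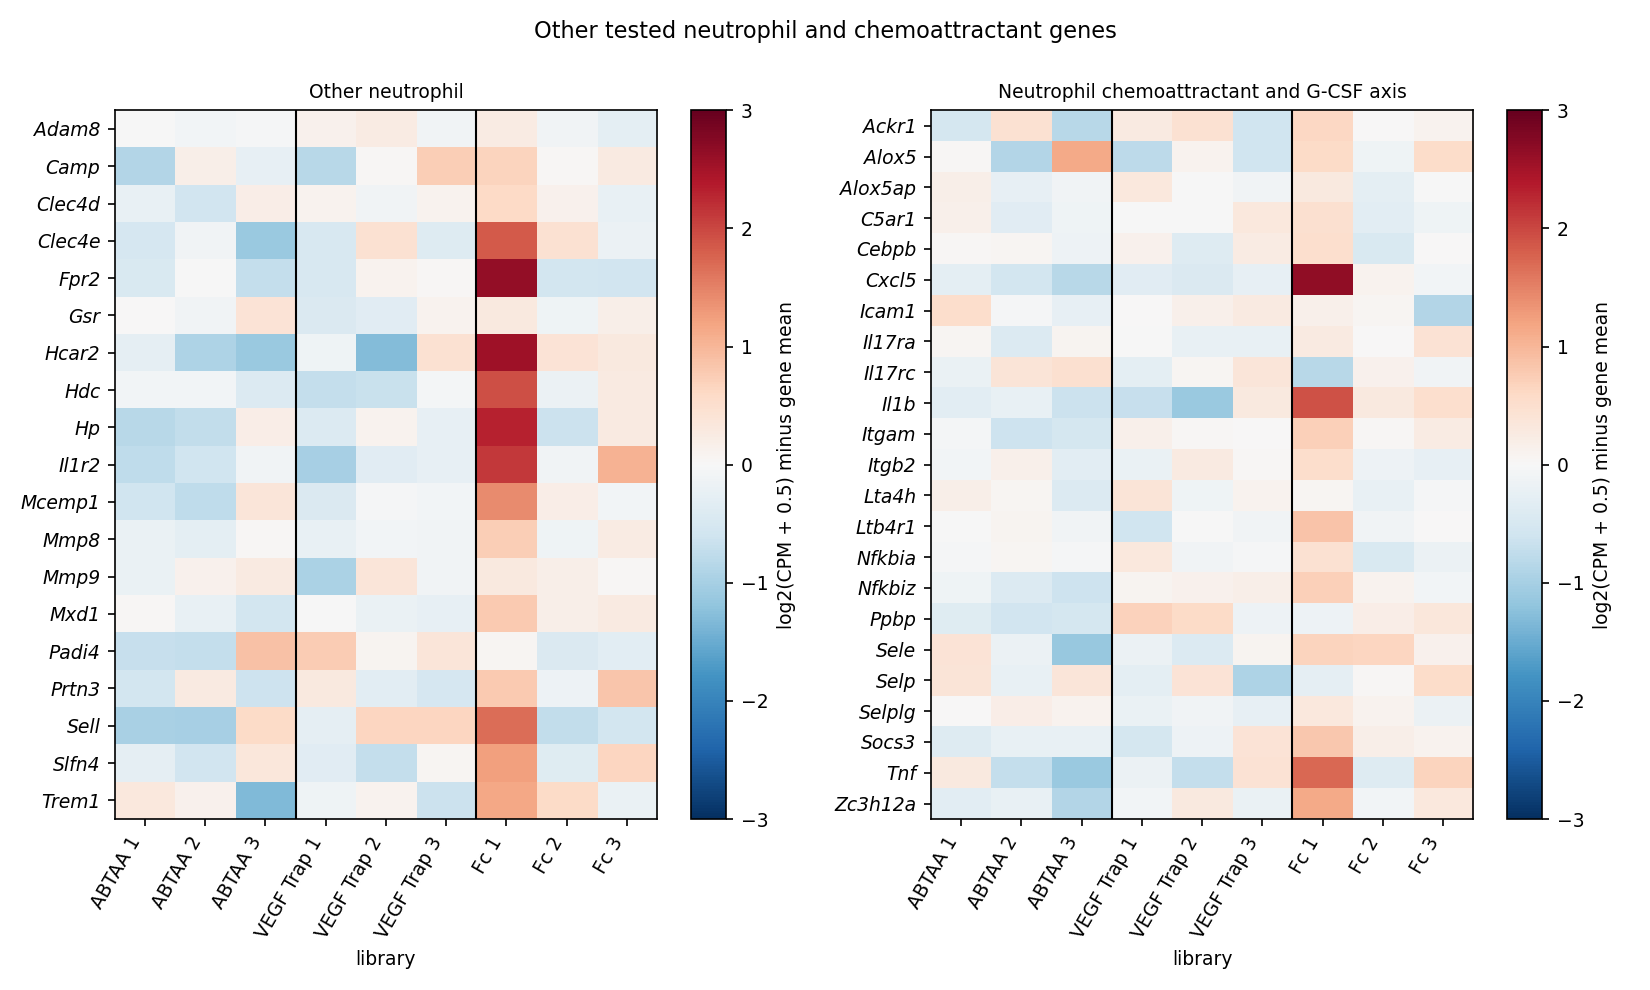
Level of the tested genes of the other neutrophil list and the chemoattractant list in each library relative to the gene's own mean over the 9 libraries, as log2(CPM + 0.5), with ABTAA, VEGF Trap and Fc libraries from left to right. Fc 1 stands out for Il1r2, Hp and Cxcl5, where Adam8, Gsr and Lta4h are near level.

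Markers of other cells were set beside these values. Of 20 monocyte and macrophage genes, all tested, 16 had negative values in ABTAA minus Fc, as had 7078 of all 14054 tested genes. Called lower there were Fcgr3 (−0.67 ± 0.13, edgeR adjusted p = 0.032) and C1qb (−0.55 ± 0.13, edgeR adjusted p = 0.0473), beside 0.555% of all tested genes. The list summed to 2064 to 2425 CPM in ABTAA, 2483 to 2758 CPM in VEGF Trap and 2569 to 2710 CPM in Fc libraries, and Fc 1, at 2710 CPM, lay close to VEGF Trap 1. The 12 genes of mast cells, eosinophils and basophils, 4 of them tested and none called, summed to 4.07 to 5.78, 7.54 to 8.60 and 3.14 to 6.03 CPM in ABTAA, VEGF Trap and Fc. The 8 platelet genes (5 tested, none called) gave 70.0 to 91.8, 80.4 to 96.8 and 83.3 to 95.4 CPM, and the 7 erythrocyte genes (5 tested, none called) 292 to 692, 299 to 677 and 324 to 648 CPM. Hba-a1 and Hba-a2 had identical counts in every library, so the erythrocyte sums may hold the same reads more than once. Fcer1a and Gp9 had 0 counts throughout. Fc 1, with 95.4 CPM for platelet and 492 CPM for erythrocyte genes, lay within the range of the other libraries.

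Tissue lists differed more. The 10 RPE genes, none called, summed to 2298 to 3139 CPM in ABTAA, 2584 to 3078 CPM in VEGF Trap and 1938 to 3168 CPM in Fc libraries, lowest in Fc 1. The 10 genes of Müller glia and astrocytes, none called, gave 7143 to 7770, 7752 to 8596 and 6700 to 8142 CPM, again lowest in Fc 1. Apoe alone made up most of each sum, with 5001 CPM in Fc 1 and 5421 to 6817 CPM in the other libraries. These sums therefore chiefly follow a single gene, and the glial genes Aqp4 and Gfap had means of only 1.04 and 0.853 CPM. Of the 10 endothelial genes, 9 had positive values in ABTAA minus Fc, as had 6975 of all 14054 tested genes. Among the 10, 5 were called higher, beside 0.847% of all tested genes. For VEGF Trap 7 of the 10 had positive values, as had 7043 of all tested genes, and none was called. The sums were 2613 to 2728, 1998 to 2190 and 1670 to 2101 CPM. All 14 skeletal muscle genes had positive values in both comparisons with Fc. Of them 8 were called higher for ABTAA and 3 for VEGF Trap, beside 0.847% and 0.512% of all tested genes. The sums were 246 to 513, 237 to 415 and 112 to 170 CPM. The 16 ocular surface genes, 4 tested and none called, gave 46.1 to 51.8, 51.0 to 70.5 and 51.6 to 67.8 CPM, with Krt12 at 2 counts in all. Calls on these marker lists were not refitted with single libraries left out. The part that tissue makeup has in the values of the 8 genes was not tested.

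**Figure D4:**
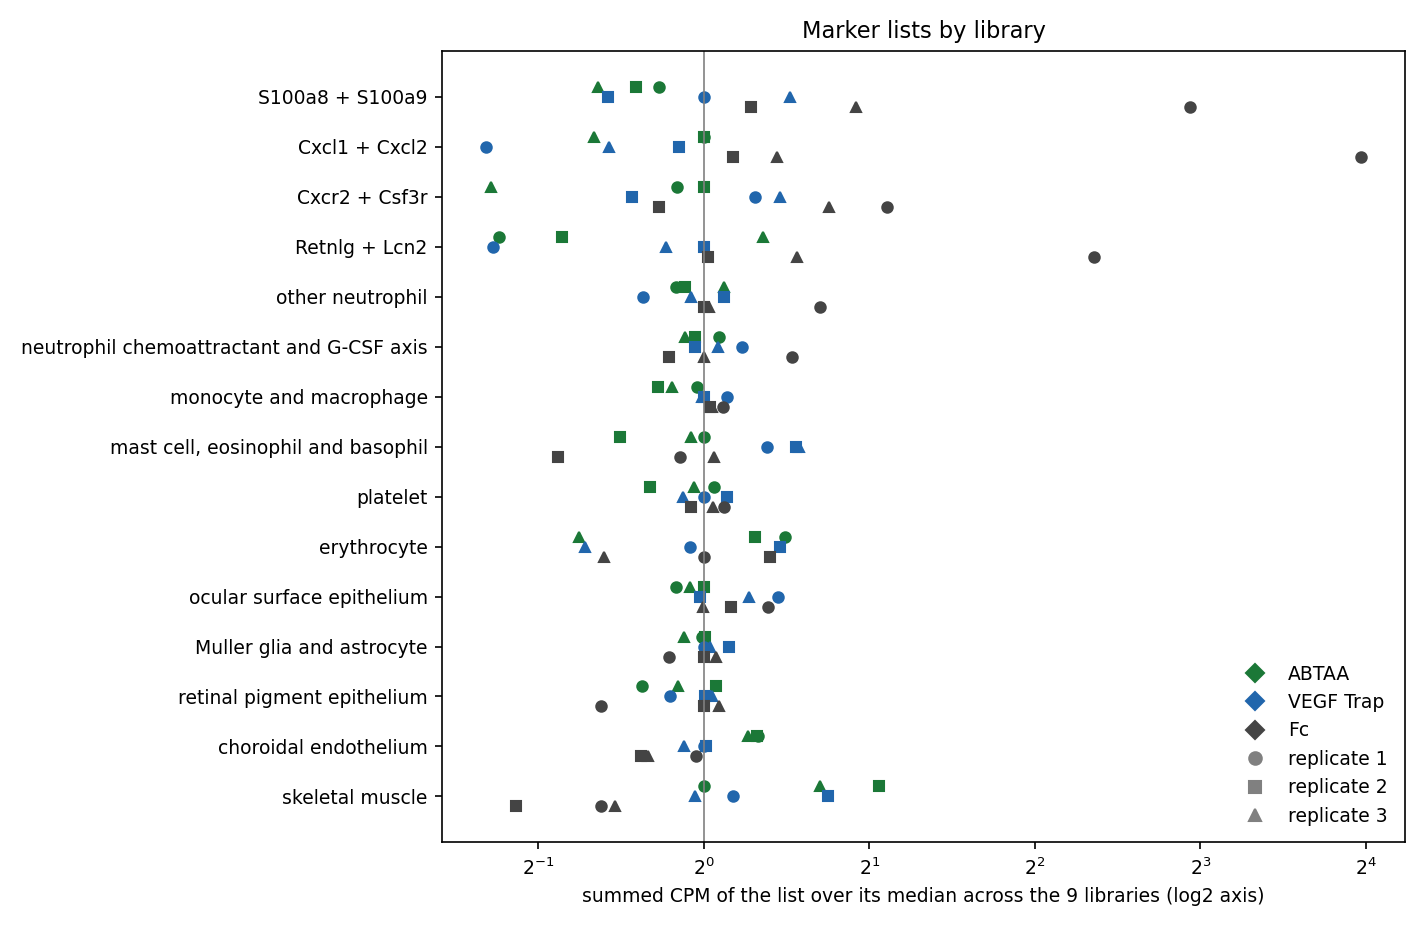
Summed CPM of each gene list in every library over the list's median across the 9 libraries, on a log2 axis, with groups marked by colour and replicate numbers by shape. Fc 1 is the highest library for the 4 pairs of the 8 genes and for the other neutrophil genes at 606 CPM, and the lowest for RPE genes at 1938 CPM.

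The genes whose course over the 9 libraries was most like that of S100a9 or Cxcl1 were sought among 10042 tested genes with a mean of at least 5 CPM. Likeness was the root mean square difference of log2(CPM + 0.5) after each gene was centred on its own mean, so that 0 is an identical course. For S100a9 the 5 closest were Cxcl5 (0.44), Il1r2 (0.60), Mefv (0.63), the haptoglobin gene Hp (0.71) and Rnd1 (0.71), beside a median of 1.13 over all candidates and 0.36 for S100a8. The remaining tested genes of the described set were farther than these 5: Lcn2 (0.73), Cxcl1 (0.75), Cxcl2 (0.79) and Csf3r (0.82). For Cxcl1 the 5 closest were Cxcl5 (0.45), Il1r2 (0.53), Hp (0.56), Adgrg2 (0.69) and F10 (0.70), beside a median of 1.10 and 0.49 for Lcn2. S100a8 was at 0.63 from Cxcl1, S100a9 at 0.75, Cxcl2 at 0.83 and Csf3r, close to that median, at 1.09. The peak in Fc 1 has a large share in these numbers, which are a description over 9 libraries.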

How the data were processed

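The deposited tables, 1 per library, give raw counts by gene symbol. Per the labels' protocols, libraries were made with a LEXOGEN QuantSeq kit, which reads transcript 3 prime ends, and per the submitters' processing notes the authors used Bowtie2, edgeR and the mm10 build. Versions, annotation, counter and strand setting were not given in the sources used here. Libraries were grouped by title; the Fc tables themselves are headed as knockout controls. Counts were even in all 9 libraries for 1616 of 14167 genes detected throughout, S100a9 among them. Hba-a1 and Hba-a2 had identical counts in every library. Whether reads were entered more than once was not tested further. No line lacked a gene name.

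Genes were filtered with filterByExpr (minimum count 10, minimum total 15), scaled by TMM and tested with the quasi-likelihood F-test of edgeR 4.0.16 in R 4.3.3, with all 9 libraries in 1 fit of 6 residual degrees of freedom and Benjamini-Hochberg adjustment over 14054 genes. The biological coefficient of variation was 17.9%. An SE is the absolute log2 fold change over the square root of F. Fold changes are relative to a median over all genes between −0.003 and 0.001. The fit was tested on simulated data. Alternatives were DESeq2 1.42.0, voom with quality weights (limma 3.58.1), RLE scaling, no filter, only the compared groups, a replicate block, counts divided by each gene's common divisor, and omission of each library.

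The 8 genes, the lists and the motifs were chosen with earlier results of these data known. Named genes were all 8, every called gene of a list (at most 6) and the 4 most abundant of the other neutrophil and chemoattractant lists or 2 of the rest, of which some are given only by count; Il1r2, Fpr1, Ngp, Elane, Ctsg, Mpo, Cxcl5, Il1b, Itgam, Zc3h12a, Socs3, Nfkbiz, Sele, Ackr1, Selp, Icam1, Prtn3, Csf3, Fcer1a, Gp9 and Krt12 were added with their values in view. Gene positions are those of GENCODE M21. Copies were sought with BLAST+ 2.17.0 in the last 200 bases of transcripts.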

Additional observations from a re-analysis of the deposited data

How the results depend on the processing

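Of 280 refits of a fold change of the 6 tested genes that gave an adjusted p, 253 kept their direction and side of the threshold, 16 came to pass it, 5 ceased to pass it and 6 changed sign. The sign changes were small values: Csf3r in VEGF Trap minus Fc was 0.058 without VEGF Trap 2 and 0.018 without Fc 1 (−0.42 to 0.058 over all omissions of a library). Lcn2 in ABTAA minus VEGF Trap was −0.080 with voom, −0.34 without ABTAA 3 and −0.086 without VEGF Trap 1 (−0.34 to 0.42), and Cxcl1 was −0.17 without VEGF Trap 1 (−0.17 to 1.05). Over all genes, DESeq2 called 750 for ABTAA and 671 for VEGF Trap against Fc, of 9420 and 9692 with an adjusted p, and 1 between the treatments. With no filter, calls numbered 684, 616 and 30 in that order, of 19838 genes. In the 2 comparisons with Fc they numbered 411 and 242 with voom, and 249 were called for VEGF Trap with common divisors removed. A fit of only the compared groups called 301 for ABTAA. Omission of a library gave 0 to 373 calls for ABTAA, none without ABTAA 2, and 7 to 144 for VEGF Trap, fewest without Fc 2.

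Of the 8 genes, calls in ABTAA minus Fc numbered 2 of 3 with DESeq2, beside 750 of 9420 over all genes. They numbered 2 of 6 with only the compared groups (301 of 13621 over all) and 2 of 6 with divisors removed (284 of 13865). With voom 0 of 6 were called (S100a9 voom adjusted p = 0.0579), beside 411 of 14054 over all. No filter gave 7 of 8, beside 684 of 19838. Omission of a library gave 0 to 2, beside 0 to 373 over all. In VEGF Trap minus Fc the calls numbered 6 of 8 with no filter, beside 616 of 19838 over all genes. They numbered 1 of 6 with divisors removed (249 of 13865 over all) and 0 to 1 on omission (7 to 144 over all). With no filter Cxcr2 entered at −2.64 for ABTAA and −3.24 for VEGF Trap (edgeR adjusted p = 0.00313 and 0.000201), and Retnlg at −3.21 and −1.90 (0.0394 and 0.261). That fit left the ABTAA minus Fc values of the 6 near those of the main fit. Their SEs were smaller, for S100a8 0.23 against 0.51 and for Cxcl2 0.55 against 1.02. Its adjusted p-values are therefore read with caution. With the filter kept and 1 library omitted, Cxcr2 where tested had edgeR adjusted p of 0.056 to 0.226 for ABTAA. For VEGF Trap it had 0.0448 without Fc 2 and 0.0551 to 0.130 otherwise. Calls of other neutrophil genes for ABTAA and VEGF Trap numbered 1 and 1 of 8 with DESeq2 and 6 and 7 of 31 with no filter. They numbered 1 and 1 of 18 with divisors removed, and 0 to 1 on omission for each. Chemoattractant genes gave, for ABTAA, 2 of 14 with DESeq2, 1 of 23 with voom, 4 of 30 with no filter and 2 of 23 with divisors removed. On omission they gave 0 to 1 for ABTAA, and for VEGF Trap 2 of 30 with no filter. Beside these 2 lists stand the calls over all genes in the same fits, given above, and 671 of 9692 for VEGF Trap with DESeq2. The cause of these changes was not tested.

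Replicate numbers paired the libraries weakly at most. Same-numbered libraries had correlations of 0.012 to 0.149, above 0.1 in 2 of 9 pairs. Those of differently numbered libraries were −0.111 to 0.055, and not every library correlated best with its own number. A replicate block gave 334, 300 and 1 calls over all genes, against 197, 144 and 0 without it, and 1 chemoattractant gene for ABTAA. Of the 8 genes it called S100a9 alone, in both comparisons with Fc. The values were −2.18 for ABTAA (edgeR adjusted p = 0.00651) and −1.51 for VEGF Trap (edgeR adjusted p = 0.0297). Cxcl1, Cxcl2, Cxcr2 and Retnlg had low counts in most libraries, which limits what 3 libraries a group can show of them.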

Other observations

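Genes outside the lists also peaked in Fc 1, and were picked after their values were seen. Saa3, an acute-phase serum amyloid gene, had 1.76, 2.68 and 3.29 CPM in ABTAA, 1.33, 2.86 and 3.60 CPM in VEGF Trap and 368, 3.82 and 5.19 CPM in Fc libraries, so Fc 1 was 70.9 times the next library. Irg1, an enzyme of activated macrophages, had at most 0.930 CPM in ABTAA, 1.80 CPM in VEGF Trap and 0.934 CPM in Fc 2 and Fc 3, and 8.22 CPM in Fc 1. Marco, a scavenger receptor of macrophages, had at most 1.41, 2.50 and 2.29 CPM in the same libraries and 10.2 CPM in Fc 1.

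A further set in Fc 1 was of bone and tooth. The osteocalcin gene Bglap had 15.3, 0.595 and 2.19 CPM in ABTAA, 0.166, 5.30 and 1.39 CPM in VEGF Trap and 51.0, 0.509 and 4.12 CPM in Fc libraries. Its near-identical copies Bglap2 and Bglap3, between which 3 prime reads are not told apart with certainty, reached 24.6 and 40.7 CPM in Fc 1. The dentin gene Dspp reached 11.6 CPM and the enamel matrix gene Ambn 14.2 CPM there. For Bglap, Bglap2, Bglap3, Dspp and Ambn the next library was ABTAA 1, which was not high for the 8 neutrophil and chemokine genes. The enamel gene Amelx, at 4.30 CPM in Fc 1, differed: its next library was VEGF Trap 2 (2.09 CPM), ahead of ABTAA 1 (1.55 CPM).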
